A study of Mus musculus with 10 samples.

Results

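The genes described here are named as genes for proteins of the cytosolic or the mitochondrial ribosome, and not every name was checked against its protein. They were chosen by symbol: names made of Rpl or Rps, a number and at most a closing a or x, with Rplp0, Rplp1, Rplp2 and Rpsa, gave 76 cytosolic members, and names made of Mrpl or Mrps, a number and at most 1 letter gave 78 mitochondrial members. These are 154 of the 25277 gene symbols in the count table. By symbol, 46 cytosolic members belong to the large 60S subunit and 30 to the small 40S subunit, and 49 mitochondrial members to the large 39S and 29 to the small 28S subunit. Mrps30 and Mrps18a are counted with the 28S by their names, although their proteins are known to sit in the large subunit. The name rule leaves out cytosolic proteins with other names, such as Fau and Rps3a1, and mitochondrial ones such as Dap3.

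The cytosolic ribosome translates the mRNAs of nuclear genes, and its large subunit holds the peptidyl transferase centre while the small subunit decodes the mRNA. The mRNAs of nearly all its proteins begin with a C followed by a run of pyrimidines, the terminal oligopyrimidine motif, through which mTORC1 and the binding protein LARP1 control their translation together. The mitochondrial ribosome makes the few proteins encoded by mitochondrial DNA, all parts of oxidative phosphorylation, and its own proteins are nuclear-encoded, made in the cytosol and imported.

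The study worked on lung cells of mice with floxed alleles of APE1, the AP endonuclease of base excision repair, encoded by Apex1. The groups were APE1 flox/flox with 3 libraries, APE1 flox/N211A with 3 libraries and APE1 flox/+ with 4 libraries, and all 10 carried at least 1 floxed allele and came from lung tissue at 12 weeks after infection with Cre adenovirus. N211A is a missense allele of APE1. Each library was made from about 500 cells described as premalignant, lysed whole, with cDNA preamplified in the manner of SMART-Seq2 and 1 ng of it taken into the sequencing library. The promoter that drove Cre, other alleles, the age of the mice and whether each library came from its own mouse are not given in the labels, so p-values measure the spread between these libraries.

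At the transcript start given by RefSeq, a run of pyrimidines was commoner in cytosolic than in mitochondrial promoters. The 60 bases before that start and the first 10 bases of the transcript are shown for 7 members whose levels are described further on. They were chosen with their values known, and the cytosolic windows shown carry the run more often than the class does. Sequences are from RefSeq on GRCm38.p6, 5′ to 3′ on the gene's strand, and capitals mark a C followed by at least 4 bases that are each C or T, beginning at the first transcribed base.
Rpl14, chr9:120571457-120571526, plus strand: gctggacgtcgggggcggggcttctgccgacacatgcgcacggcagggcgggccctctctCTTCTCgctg
Rpl15, chr14:18270977-18271046, minus strand: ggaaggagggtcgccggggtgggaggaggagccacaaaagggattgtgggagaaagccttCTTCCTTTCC
Rps27, chr3:90213639-90213708, minus strand: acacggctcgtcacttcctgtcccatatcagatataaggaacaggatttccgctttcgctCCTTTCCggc
Rplp2, chr7:141447591-141447660, plus strand: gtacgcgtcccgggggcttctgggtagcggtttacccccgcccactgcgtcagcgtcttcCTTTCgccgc
Rplp0, chr5:115559407-115559476, plus strand: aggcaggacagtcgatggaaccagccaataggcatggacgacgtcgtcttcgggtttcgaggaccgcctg
Mrps17, chr5:129715437-129715506, plus strand: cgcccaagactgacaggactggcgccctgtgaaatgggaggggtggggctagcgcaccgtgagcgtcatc
Mrpl33, chr5:31613891-31613960, plus strand: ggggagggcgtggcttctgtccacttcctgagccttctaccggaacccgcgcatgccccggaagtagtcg
The run was present at the start of 4 of these 5 cytosolic windows, and absent from Rplp0 and from both mitochondrial windows. RefSeq promoters were found for 125 of the 154 members, some with more than 1 start. The run began exactly at the start in 13 of 66 cytosolic promoters (19.7%), in 0 of 75 mitochondrial promoters and in 2.34% of all 22450 promoters of genes in the table. Allowing it to begin within 10 bases of the start on either side, the shares were 54.5% for cytosolic, 41.3% for mitochondrial and 31.5% for all promoters. Searched on both strands from 250 bases before to 50 after the start, the ETS motif CCGGAAGT was in 16.7% of cytosolic, 16.0% of mitochondrial and 5.12% of all promoters. The YY1 motif AAGATGGC was in 10.6%, 16.0% and 3.05% of them, and the NRF1 motif in 7.58%, 17.3% and 6.29%. NRF1 and the ETS factor GABP are known as activators of nuclear genes for mitochondrial proteins. These matches describe letters in RefSeq windows, and transcript starts in these cells were not measured.

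Total counts ranged from 10672334 to 53678659 in flox/flox, from 8955368 to 17070817 in flox/N211A and from 13221853 to 17707731 in flox/+. Of the 13464 genes that passed the filter on low counts, flox/flox replicate 2 had 34.2% at 0 counts, against 2.82% to 16.6% in the other libraries. Apex1 stood at 6.01, 0 and 0.571 CPM, the read counts scaled to each TMM-adjusted library total, in flox/flox, at 7.84, 12.9 and 6.43 CPM in flox/N211A and at 4.11, 15.8, 35.8 and 54.0 CPM in flox/+. Apex1 in flox/flox lay under all of flox/N211A, while both genotypes overlapped flox/+, and flox/+ replicate 1, labelled as keeping an intact allele, lay under flox/flox replicate 1. Libraries are named by their labels throughout. The fold change was -3.65 ± 1.75 (log2, SE) for flox/flox against flox/+, with an edgeR adjusted p of 0.353. Xist was above the Y-linked genes in 7 libraries and below them in flox/flox replicate 2 and flox/+ replicates 2 and 4, so the sexes were unevenly spread over the groups. All 154 members passed the filter. The genotypes' libraries vary strongly over all genes, with a biological coefficient of variation of 1.24.

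Cytosolic ribosomal protein mRNA was lowest in flox/flox replicates 2 and 3. Mitochondrial ribosomal protein mRNA was not low in replicate 2, and whether it was low in replicate 3 depended on the scaling. The 76 cytosolic members summed to 30340, 17774 and 12186 CPM in flox/flox, to 27519, 32832 and 39958 CPM in flox/N211A and to 60155, 36547, 27290 and 37413 CPM in flox/+. Replicate 1 of flox/flox lay inside the flox/+ range, and the other 2 flox/flox libraries lay under every library of the other genotypes. The means were 20100 ± 9298 CPM in flox/flox (SD, n = 3), 33436 ± 6241 CPM in flox/N211A (SD, n = 3) and 40351 ± 13975 CPM in flox/+ (SD, n = 4), and flox/+ replicate 1 held the highest sum. The 78 mitochondrial members summed to 3286, 5026 and 4170 CPM in flox/flox, to 2816, 3256 and 3198 CPM in flox/N211A and to 3710, 3624, 4226 and 4643 CPM in flox/+. Each flox/N211A library lay under every flox/+ library, and this held under each of the 4 ways of scaling tried, while flox/flox overlapped flox/+. The mitochondrial sum of flox/flox replicate 3 lay inside the flox/+ range with TMM only. It was 3204 CPM with RLE scaling, 3127 CPM with plain library totals and 3786 CPM with totals that leave out the 10 most abundant genes. Each of these lay under every flox/+ library on the same scaling.

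The ratio of the 2 classes within a library does not depend on its scaling. Cytosolic members outweighed mitochondrial ones 9.23, 3.54 and 2.92 times in flox/flox, 9.77, 10.1 and 12.5 times in flox/N211A and 16.2, 10.1, 6.46 and 8.06 times in flox/+. Replicates 2 and 3 of flox/flox were again under every other library, and replicate 1 was within the range of flox/+. Within the cytosolic ribosome, the 60S to 40S ratio of summed CPM was 1.35, 1.51 and 1.87 in flox/flox, 1.24, 1.37 and 1.33 in flox/N211A and 1.38, 1.38, 1.50 and 1.58 in flox/+. The 40S genes were thus relatively lowest in flox/flox replicate 3. The 39S to 28S ratio was 1.91, 1.68 and 1.66 in flox/flox, 2.01, 1.93 and 2.41 in flox/N211A and 2.33, 1.98, 2.36 and 1.85 in flox/+. Each flox/flox library lay under every flox/N211A library, and both genotypes overlapped flox/+.

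**Figure D1:**
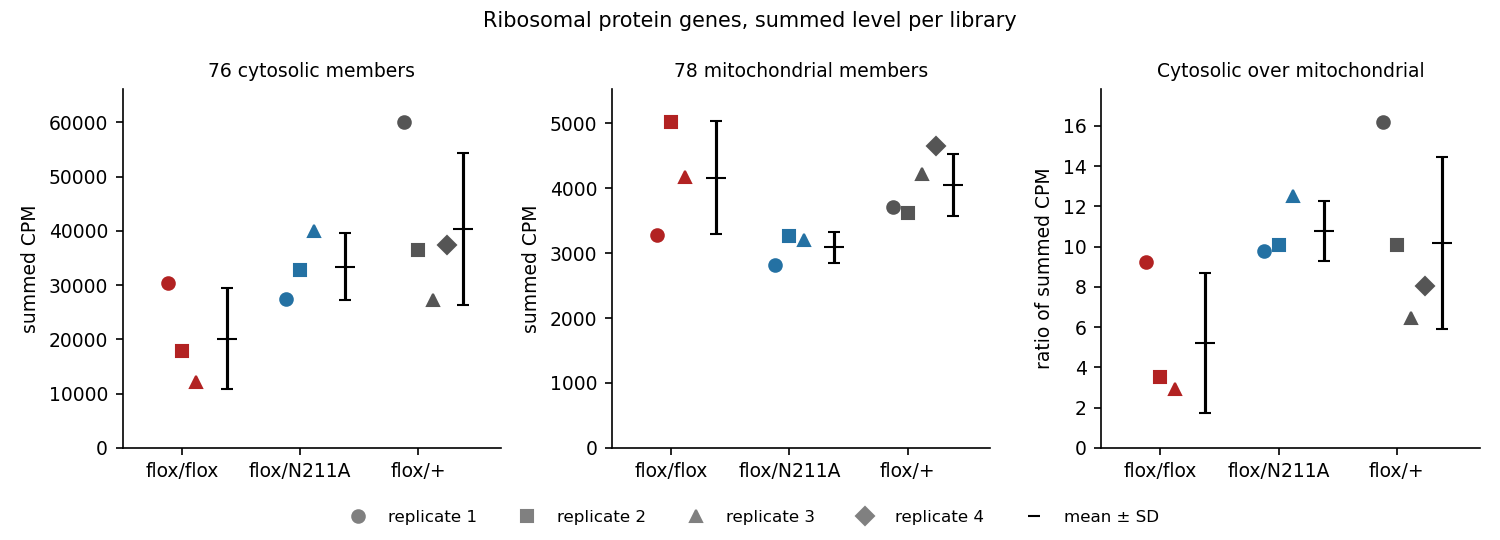
Summed CPM of the cytosolic members (left) and the mitochondrial members (middle) and the ratio of the 2 sums (right) in each library by genotype; symbols mark replicates and bars the mean ± SD of 3, 3 and 4 libraries. Cytosolic sums of 17774 and 12186 CPM in flox/flox replicates 2 and 3 lie under all other libraries, and the 3 mitochondrial sums of flox/N211A lie under all 4 of flox/+.

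In flox/flox against flox/+, cytosolic members were lower as a class, but no single gene passed the test adjusted over all genes. All 76 of 76 lay below 0 in the difference of mean log2 CPM, against 63.1% of all genes tested. Their median was -1.07 (range -2.92 to -0.31), against -0.62 over all genes, so that they lay 0.46 under the general shift. On edgeR's fold changes the medians were -0.98 for the cytosolic members and 0.056 over all genes, so the distance to all genes depends on the measure. EdgeR's quasi-likelihood test called 0 of 76 after Benjamini-Hochberg adjustment, against 0% of all genes, with a lowest adjusted p of 0.244 for Rpl6. At an unadjusted p under 0.05 it had 22 lower (28.9%) and 0 higher, against 8.7% and 5.73% of all genes. The 3 flox/flox libraries lay under all 4 flox/+ libraries for 18 of the 76, against 7.19% of all genes. DESeq2 called 5 of 76 lower, Rpl6, Rpl14, Rpl15, Rplp0 and Rps4x, a share close to the 6.54% of all genes it called lower. The large and small subunits moved alike, with medians of -1.05 over 46 60S genes and -1.20 over 30 40S genes.

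The cytosolic median rests on 2 libraries, flox/flox replicates 2 and 3, which also resembled the other libraries least over all genes tested. Their highest rank correlations with any other library were 0.665 and 0.649, against 0.764 to 0.898 for the remaining libraries. The part of this in the cytosolic median was not tested. Without flox/flox replicates 2 and 3 the cytosolic median was -0.19, and without replicate 3 alone it was -0.67. When single libraries were left out, the cytosolic median lay between -1.42 and -0.67. The edgeR fold changes of Rpl6, Rpl14 and Rplp0, another measure, then lay within -1.45 to -1.19, -1.46 to -1.20 and -1.63 to -1.33. These genes had the smallest edgeR p among the cytosolic members in this comparison. Their narrow ranges are therefore not independent of how they were picked. Without replicate 1 of flox/flox, edgeR called 5 cytosolic members, Rps9, Rps23, Rps27a, Rpsa and Rpl17, and all were lower, against 2.14% of all genes called lower in that fit. Markers of lung cell types also differed between libraries, and only the alveolar type II sums set flox/flox apart from both other genotypes. In flox/flox against flox/+, 11 of 12 alveolar type II markers were below 0. The 12 summed to 28549 to 35294 CPM in flox/flox, 55678 to 64151 CPM in flox/N211A and 56376 to 208919 CPM in flox/+. All 8 ciliated cell markers were above 0, with sums of 2673 to 7180 CPM in flox/flox, 1566 to 1867 CPM in flox/N211A and 707 to 3573 CPM in flox/+. The 8 club cell markers summed to 57635 to 210446 CPM in flox/flox, 118024 to 253984 CPM in flox/N211A and 31924 to 162241 CPM in flox/+, and no marker of these 3 lists was at 0 in all libraries of a genotype. The 8 leukocyte markers summed to at most 78.2 CPM in flox/flox, 72.7 CPM in flox/N211A and 48.1 CPM in flox/+, with Cd3e and Marco at 0 throughout flox/flox and flox/+. The 6 fibroblast markers summed to at most 26.0, 81.7 and 19.6 CPM in those 3 genotypes, with Lum at 0 in all libraries. The 6 endothelial markers summed to 3.98 to 86.9 CPM in flox/flox, 42.2 to 115.5 CPM in flox/N211A and 9.85 to 61.7 CPM in flox/+. The 8 alveolar type I markers summed to 719 to 1366 CPM in flox/flox, 540 to 904 CPM in flox/N211A and 543 to 1573 CPM in flox/+. The 5 erythroid markers, mostly globins, summed to 85.4, 2942 and 771 CPM in flox/flox, 980, 2787 and 0.839 CPM in flox/N211A and 3009, 567, 396 and 45.8 CPM in flox/+, with Alas2 at 0 throughout flox/flox. Their highest sums were thus in 1 library of each genotype, among them flox/flox replicate 2, which was low in cytosolic members, and flox/+ replicate 1, which was highest. The part of cell make-up in the ribosomal protein levels was not tested, and in bulk libraries fewer cells of a type and less RNA per cell cannot be told apart.

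**Figure D2:**
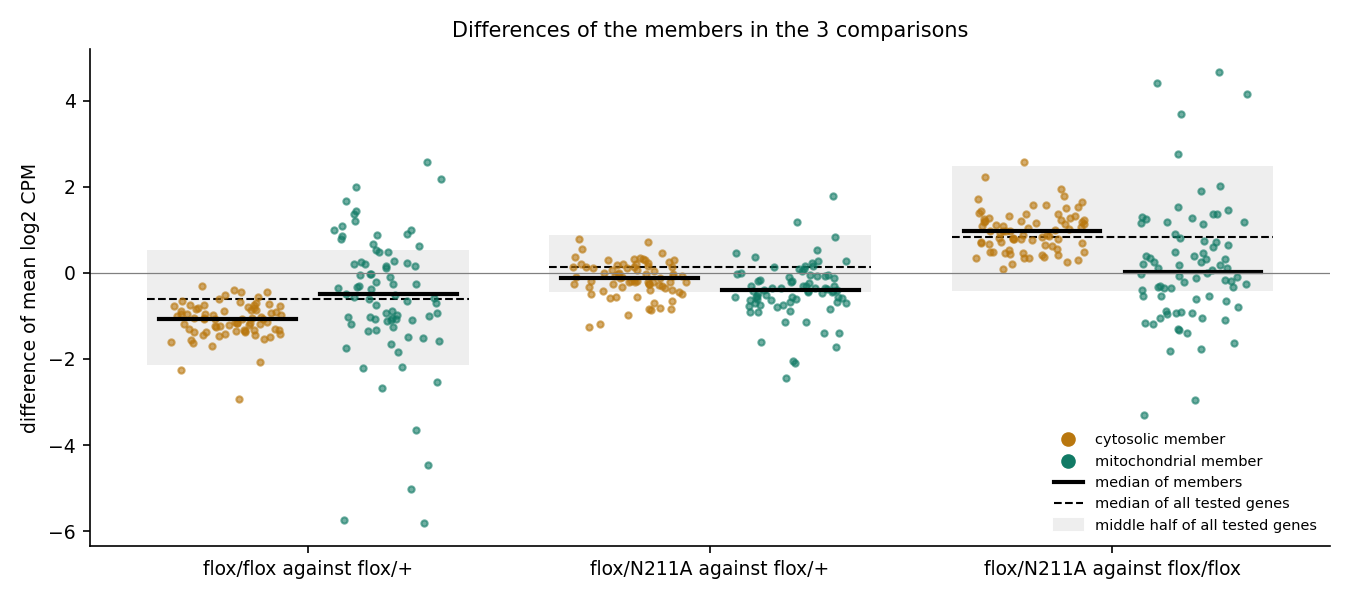
Difference of mean log2 CPM of each cytosolic and mitochondrial member (1 point each) in the 3 comparisons, with the median of each class, and the median and interquartile range of all 13464 genes tested. Cytosolic members lie together, all below 0 in flox/flox against flox/+ (median -1.07) and all above 0 in flox/N211A against flox/flox (median 0.97), and mitochondrial members scatter on both sides.

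Among the 60S genes, Rpl6 (chr5:121204481-121209241), which makes a protein on the outer face of the large subunit, had 180, 160 and 209 CPM in flox/flox, 209, 307 and 263 CPM in flox/N211A and 400, 392, 453 and 621 CPM in flox/+. Every flox/flox and every flox/N211A library lay under every flox/+ library. The log2 fold change for flox/flox against flox/+ was -1.35 ± 0.42 (SE), with an edgeR adjusted p of 0.244 and a DESeq2 adjusted p of 0.0034. Rpl14 (chr9:120571444-120574654), also of the large subunit, had 168, 174 and 131 CPM in flox/flox, 205, 283 and 336 CPM in flox/N211A and 525, 396, 313 and 382 CPM in flox/+. Its flox/flox libraries lay under all others, and flox/N211A overlapped flox/+. The log2 fold change for flox/flox was -1.36 ± 0.42 (SE), with an edgeR adjusted p of 0.247 and a DESeq2 adjusted p of 0.0158.

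Rplp0 (chr5:115559467-115563727) forms the base of the stalk that recruits elongation factors. It had 379, 560 and 403 CPM in flox/flox, 269, 843 and 631 CPM in flox/N211A and 1501, 843, 1118 and 1412 CPM in flox/+. All flox/flox libraries were under flox/+, and flox/N211A replicate 2 lay at the level of flox/+ replicate 2. The log2 fold change was -1.45 ± 0.47 (SE) for flox/flox, with an edgeR adjusted p of 0.255, and -1.07 ± 0.46 for flox/N211A, with an edgeR adjusted p of 1.00. Rplp1, one of the acidic stalk proteins bound to Rplp0, had 914, 487 and 175 CPM in flox/flox, 659, 739 and 1223 CPM in flox/N211A and 1586, 779, 610 and 415 CPM in flox/+, with wide overlap. Rplp2, the other acidic stalk protein, had 352, 170 and 49.3 CPM in flox/flox, 219, 250 and 427 CPM in flox/N211A and 740, 247, 194 and 151 CPM in flox/+. For both the highest library was flox/+ replicate 1 and the lowest was flox/flox replicate 3, and edgeR's adjusted p was 0.622 for Rplp1 and 0.616 for Rplp2 in flox/flox.

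Rpl15 (chr14:18267823-18271391), a large-subunit gene mutated in some families with Diamond-Blackfan anaemia, had 140, 92.1 and 224 CPM in flox/flox, 136, 202 and 195 CPM in flox/N211A and 205, 300, 487 and 1015 CPM in flox/+. Its spread within flox/+ was the widest part of these values, with replicate 4 well above the rest; flox/flox replicate 3 overlapped flox/+, and flox/N211A lay under all of it. The log2 fold change was -1.72 ± 0.57 (SE) for flox/flox and -1.50 ± 0.57 for flox/N211A, with edgeR adjusted p of 0.269 and 1.00.

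Among the 40S genes, Rps4x, the X-linked form of this small-subunit protein, had 609, 245 and 269 CPM in flox/flox, 777, 743 and 874 CPM in flox/N211A and 1486, 1193, 618 and 740 CPM in flox/+. The flox/flox libraries lay under the others, the nearest being 609 CPM in flox/flox replicate 1 and 618 CPM in flox/+ replicate 3. Rps19, the gene most often mutated in Diamond-Blackfan anaemia, had 740, 645 and 285 CPM in flox/flox, 877, 1244 and 1206 CPM in flox/N211A and 1916, 1061, 1325 and 1170 CPM in flox/+. Rpsa (chr9:120127689-120132369), known also as the laminin receptor, had 790, 158 and 149 CPM in flox/flox, 464, 782 and 820 CPM in flox/N211A and 1188, 759, 527 and 745 CPM in flox/+. Replicates 2 and 3 of flox/flox were low and replicate 1 was inside the flox/+ range, and edgeR's adjusted p of 0.379 became 0.0317 without replicate 1. Rps27a, translated as a fusion of ubiquitin and a 40S protein, had 473, 152 and 111 CPM in flox/flox, 399, 528 and 484 CPM in flox/N211A and 844, 496, 441 and 455 CPM in flox/+. It showed the same split of flox/flox, with an adjusted p of 0.323 that became 0.0413 without replicate 1. The widest cytosolic difference in flox/flox belonged to Rpl10a, at -2.92, and the smallest to Rpl27, at -0.31.

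**Figure D3:**
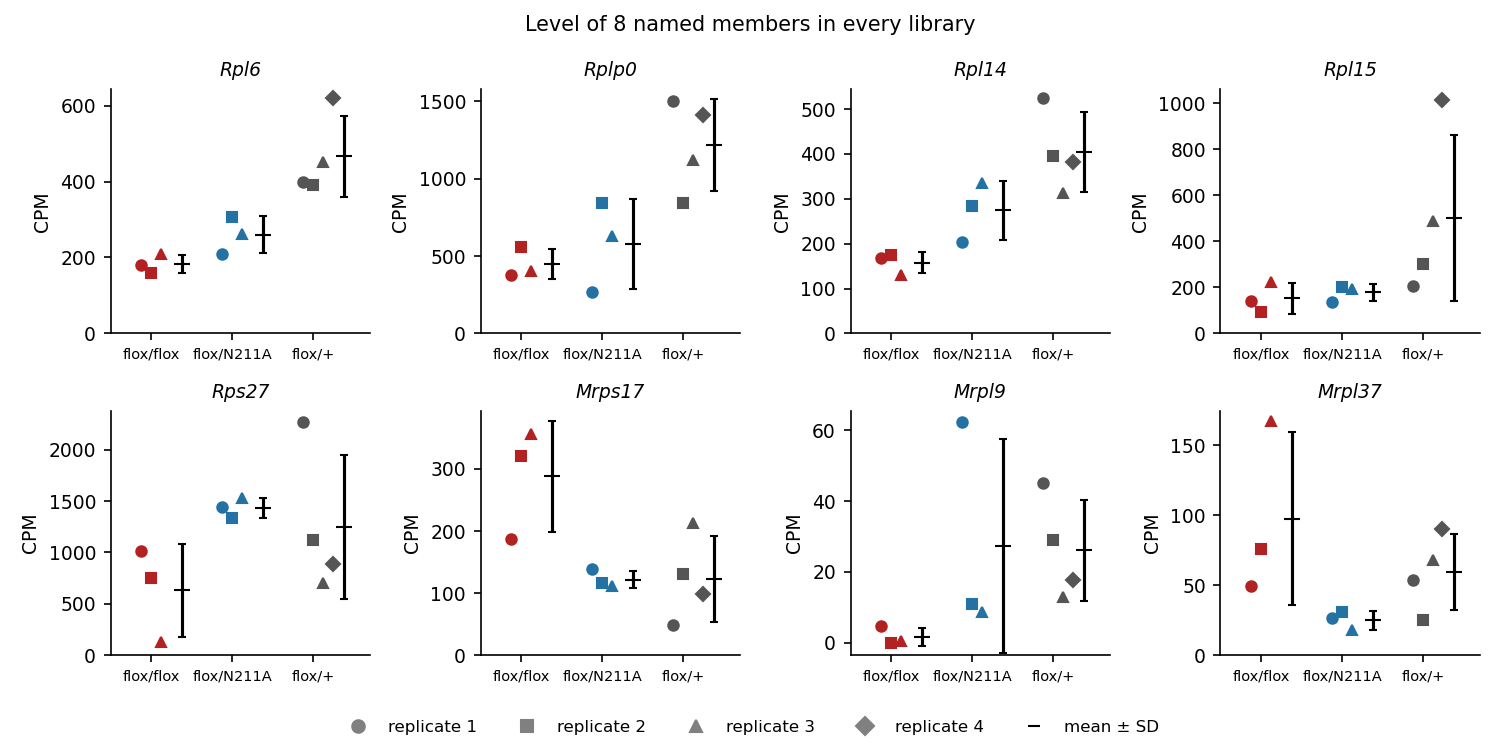
CPM of 5 cytosolic members (Rpl6, Rplp0, Rpl14, Rpl15, Rps27) and 3 mitochondrial members (Mrps17, Mrpl9, Mrpl37) in each library by genotype; symbols mark replicates and bars the mean ± SD of 3, 3 and 4 libraries. Rpl14 is lowest in all 3 flox/flox libraries, Rpl6 is under every flox/+ library in both other genotypes, and Mrps17 is higher in flox/flox replicates 2 and 3 (321 and 356 CPM) than in any flox/+ library.

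Mitochondrial members did not move together in flox/flox against flox/+. Of the 78, 51 lay below 0 and 27 above, against 63.1% of all genes below and 36.9% above, with a median of -0.50 (range -5.81 to 2.57) against -0.62 over all genes. On edgeR's fold changes 41 lay below 0 and 37 above, with a median of -0.07 against 0.056 over all genes, so which side of all genes the class lay on depends on the measure. EdgeR called 0 of 78 after adjustment, with a lowest adjusted p of 0.312. At an unadjusted p under 0.05 it had 2 higher and 2 lower, shares of 2.56% each against 5.73% and 8.7% of all genes, and DESeq2 called 2 lower, Mrpl9 and Mrps5, where it called 6.54% of all genes lower. The libraries did not overlap for 5 members that were higher and 8 that were lower, against 3.44% and 7.19% of all genes. The 39S genes had a median of -0.33 and the 28S genes of -0.61.

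Mrps17 (chr5:129715497-129722556), a small-subunit protein with a bacterial counterpart, had 187, 321 and 356 CPM in flox/flox, 138, 115 and 112 CPM in flox/N211A and 49.1, 131, 213 and 98.7 CPM in flox/+. Replicates 2 and 3 of flox/flox were the highest of all libraries, and replicate 1 lay within flox/+. The log2 fold change was 1.23 ± 0.51 (SE) for flox/flox, with an edgeR adjusted p of 0.312. Mrps26 (chr2:130563742-130568695), a small-subunit protein, had 34.2, 67.5 and 82.0 CPM in flox/flox, 13.6, 1.38 and 20.0 CPM in flox/N211A and 13.4, 17.7, 15.7 and 6.48 CPM in flox/+. Every flox/flox library lay above every other library, with a log2 fold change of 2.20 ± 0.99 (SE) and an edgeR adjusted p of 0.325. Mrpl57, of the large subunit, had 28.9, 97.8 and 195 CPM in flox/flox, 42.6, 30.9 and 46.6 CPM in flox/N211A and 24.5, 38.1, 54.2 and 54.3 CPM in flox/+, with flox/flox replicate 1 inside the flox/+ range.

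On the other side, Mrpl9 (chr3:94443318-94451130), of the large subunit, had 4.60, 0 and 0.547 CPM in flox/flox, 62.2, 10.9 and 8.81 CPM in flox/N211A and 45.0, 29.1, 12.9 and 17.6 CPM in flox/+. All flox/flox libraries lay under all others, with a log2 fold change of -3.93 ± 1.63 (SE), an edgeR adjusted p of 0.312 and a DESeq2 adjusted p of 0.0244. Mrps5 (chr2:127587222-127606829), of the small subunit, had 1.78, 0 and 0.646 CPM in flox/flox, 6.13, 11.5 and 13.1 CPM in flox/N211A and 6.50, 4.55, 21.8 and 33.2 CPM in flox/+. It did not overlap either, with a log2 fold change of -4.34 ± 1.87 (SE), an edgeR adjusted p of 0.316 and a DESeq2 adjusted p of 0.00852. Mrpl45, the protein that anchors the human mitochondrial ribosome to the inner membrane, had 12.9, 0 and 0.174 CPM in flox/flox, 11.5, 9.93 and 36.8 CPM in flox/N211A and 57.1, 23.3, 55.5 and 45.8 CPM in flox/+. All 3 were at 0 in flox/flox replicate 2. With single libraries left out, the fold change of Mrpl9 ranged from -6.42, without flox/flox replicate 1, to -3.36, and that of Mrps5 from -5.56, also without that library, to -3.75. Of the 78 mitochondrial members, 3, 6 and 9 were under 1 CPM in flox/flox, 0, 3 and 1 in flox/N211A and 0, 0, 3 and 0 in flox/+. The shares in flox/flox, 3.85%, 7.69% and 11.5%, were below those of all 8229 genes with a mean of 10 to 200 CPM, 7.66%, 26.4% and 16.4%. No cytosolic member was at 0 counts in any library.

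**Figure D4:**
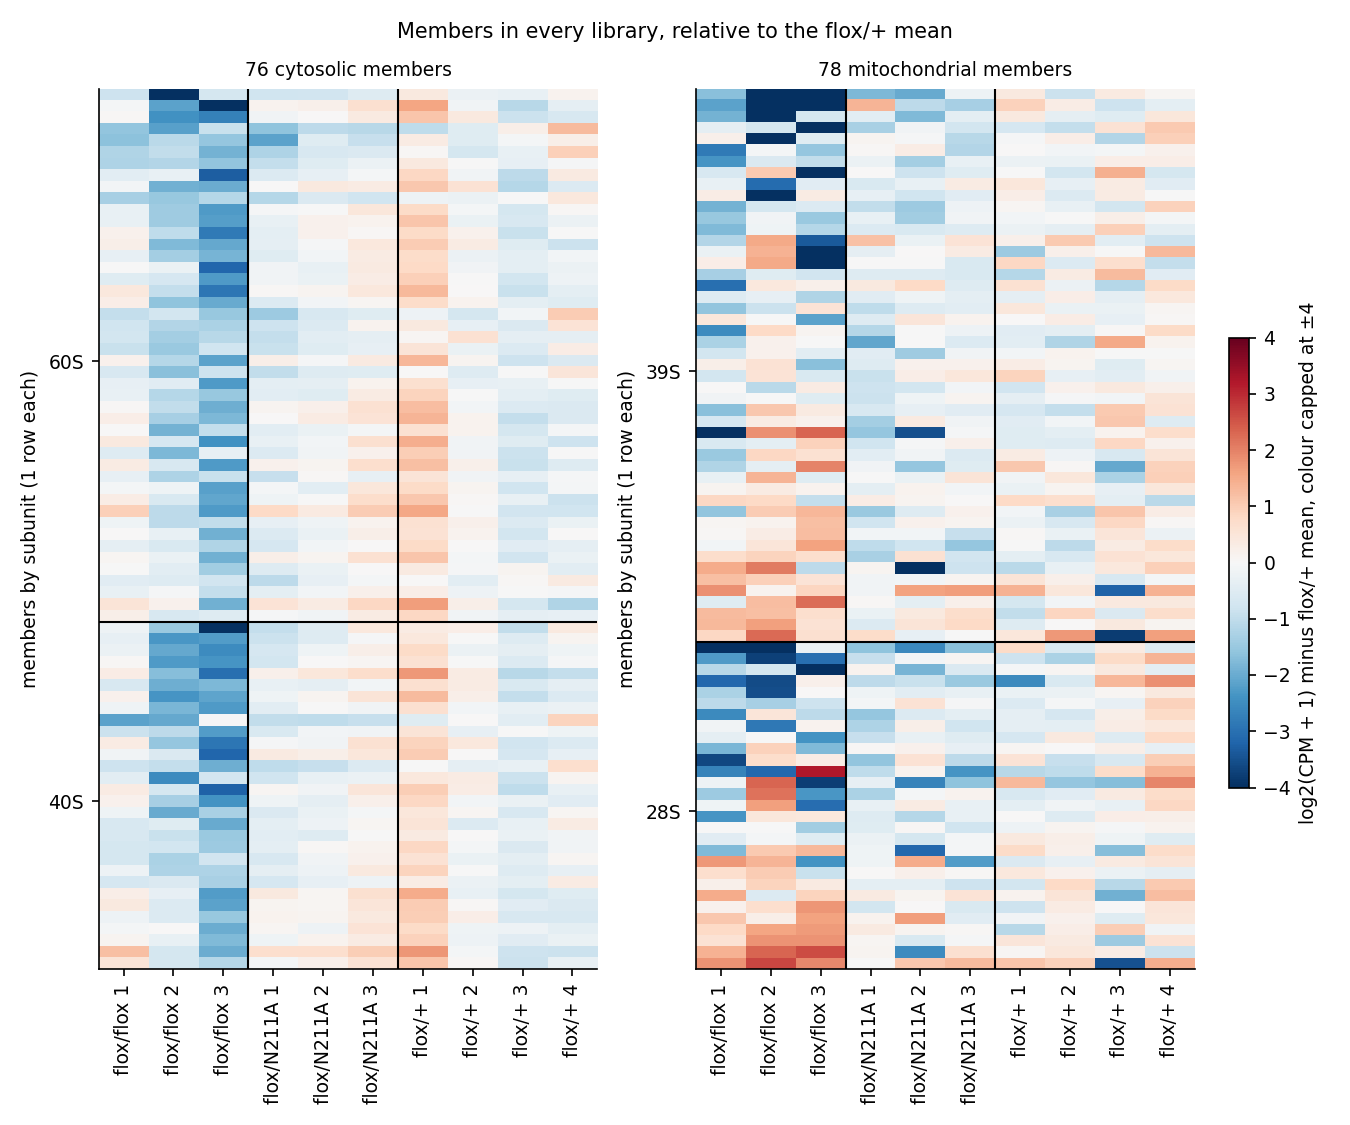
Level of each member (rows, by subunit, ordered within it by the mean in flox/flox) in the 10 libraries, as log2(CPM + 1) minus the flox/+ mean, with colour capped at 4 in both directions. The cytosolic panel is mostly blue down flox/flox replicates 2 and 3 and mostly red down flox/+ replicate 1, and the mitochondrial panel shows both colours in every flox/flox library.

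In flox/N211A against flox/+, the cytosolic class was close to flox/+ and the mitochondrial class was lower by a small amount. Cytosolic members had a median of -0.12 with 47 of 76 below 0, and mitochondrial members a median of -0.40 with 62 of 78 below 0, against a median of 0.15 and 43.5% below 0 over all genes. The mitochondrial members thus lay 0.55 under the general shift, and the cytosolic ones 0.27 under it. On edgeR's fold changes the medians were -0.40 for mitochondrial and -0.18 for cytosolic members, against -0.045 over all genes. EdgeR called 0 members of either class after adjustment, with every adjusted p at 1.00, against 0% of all genes. At an unadjusted p under 0.05 it had 2 cytosolic members lower, Rplp0 and Rpl15, and 0 mitochondrial ones, against 0.706% of all genes lower and 0.728% higher, and DESeq2 called 0 members, against 0.126% of all genes in either direction. All 3 flox/N211A libraries lay under all 4 flox/+ libraries for 5 cytosolic and 5 mitochondrial members, against 2.64% of all genes, and above them for 0 members, against 3.51%. The cytosolic median changed sign with the setting: it was 0.054 when totals left out the 10 most abundant genes, 0.13 without flox/+ replicate 1 and 0.017 without flox/N211A replicate 1. The mitochondrial median stayed between -0.47 and -0.30 when single libraries were left out.

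Mrpl37 (chr4:107055874-107066868), of the large subunit, had 49.5, 75.9 and 167 CPM in flox/flox, 26.3, 30.7 and 17.7 CPM in flox/N211A and 53.6, 25.5, 67.8 and 90.4 CPM in flox/+. Replicates 1 and 2 of flox/N211A lay just above flox/+ replicate 2 and under the other flox/+ libraries. The log2 fold change was -1.25 ± 0.69 (SE), with an edgeR adjusted p of 1.00. Mrps18b, of the small subunit, had 10.7, 12.1 and 7.76 CPM in flox/N211A against 3.14, 14.9, 60.5 and 86.5 CPM in flox/+, and Mrps2 had 11.6, 1.49 and 4.20 CPM against 38.5, 4.45, 3.83 and 60.5 CPM, both with overlap. On the higher side, Rps27, a 40S protein with a zinc finger, had 1446, 1334 and 1527 CPM in flox/N211A against 2272, 1125, 702 and 890 CPM in flox/+. Its flox/N211A libraries were close to each other and inside the flox/+ range, as were those of Rps21 and Rpl39. Mrps35 had 22.6, 67.3 and 14.5 CPM in flox/N211A against 18.5, 23.3, 14.1 and 28 CPM in flox/+, and Mrpl46 had 12.1, 26.4 and 32.1 CPM against 12.3, 18.4, 23.8 and 19.8 CPM. Mrpl16 had 7.48, 27.9 and 29.0 CPM in flox/N211A against 23.7, 11.8, 0 and 23.5 CPM in flox/+, where replicate 3 had no reads.

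In flox/N211A against flox/flox, cytosolic members all lay above 0, and mitochondrial members lay on both sides. In the difference of mean log2 CPM, the cytosolic median was 0.97 with 76 of 76 above 0, against 0.85 and 66.2% above 0 over all genes, and the mitochondrial median was 0.03 with 40 of 78 above 0. Relative to all genes the mitochondrial members lay 0.82 lower on that measure. On edgeR's fold changes the medians were 0.71 for cytosolic members, with 76 of 76 above 0, -0.31 for mitochondrial members, with 51 of 78 below 0, and -0.11 over all genes, so the distance of each class to all genes depends on the measure. This comparison shares its flox/flox libraries with the first and its flox/N211A libraries with the second, so it is no separate evidence. EdgeR called 0 members after adjustment, against 0% of all genes. At an unadjusted p under 0.05 there were 3 cytosolic members higher, Rpl34, Rps4x and Rps19, against 7.63% of all genes, and 1 mitochondrial member higher, Mrpl9, and 4 lower, Mrpl37, Mrps17, Mrps26 and Mrps6, against 4.42% of all genes lower. The libraries did not overlap for 16 cytosolic members that were higher, 3 mitochondrial ones that were higher and 10 that were lower, against 13% of all genes higher and 5.61% lower. DESeq2 called Mrpl9 higher, with an adjusted p of 0.0451, against 4.7% of all genes. Mrps6, of the small subunit, had 40.5, 68.4 and 43.7 CPM in flox/N211A against 75.4, 107 and 233 CPM in flox/flox, with no overlap, a log2 fold change of -1.45 ± 0.63 (SE) and an edgeR adjusted p of 0.397. Mrps28 had 39.9, 63.9 and 40.8 CPM in flox/N211A against 19.8, 16.3 and 23.2 CPM in flox/flox, also without overlap, at an edgeR adjusted p of 0.537. Leaving out flox/flox replicates 2 and 3, the cytosolic median was 0.084.

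Cytosolic members followed each other across libraries and mitochondrial members did not. Over all pairs of cytosolic members, the median Spearman correlation of CPM across the 10 libraries was 0.71, and over pairs of mitochondrial members it was 0.10. Over the 7 libraries of flox/N211A and flox/+ alone the medians were 0.57 and 0.14. These describe genes measured in the same few libraries and share their depth and scaling. The classes also differ in level. The median member stood on average at 220, 362 and 427 CPM for cytosolic members in flox/flox, flox/N211A and flox/+. For mitochondrial members it stood at 43.8, 32.2 and 44.6 CPM. The part of this gap in the correlations was not tested, and no such correlation was computed over all genes. Of the 76 cytosolic members, 56 were lowest in flox/flox replicate 3 and 17 in flox/flox replicate 2, and 64 were highest in flox/+ replicate 1. The mitochondrial members peaked in flox/flox replicate 2 (20 members), flox/+ replicate 4 (17) and flox/flox replicate 3 (15). The coefficient of variation of CPM over the 10 libraries had a median of 49.2% for cytosolic and 55.8% for mitochondrial members. It was lowest for Mrpl30, a large-subunit gene, at 19.7% and for Rpl41, which encodes a very short basic protein, at 21.3%, and highest for Mrps27 at 180%. Mrps27 had 0.376, 0 and 79.4 CPM in flox/flox, 3.34, 8.61 and 0.699 CPM in flox/N211A and 3.06, 3.36, 13.6 and 22.3 CPM in flox/+, so a single library holds most of its reads.

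The control libraries differed among themselves in which cytosolic genes were high. Between flox/+ replicate 4 and flox/+ replicate 1, 65 of 76 cytosolic members were lower and 11 were higher. Among the 11 were Rpl4, Rpl6, Rpl13, Rpl15, Rps2, Rps3 and Rps7. Rpl15 had 4.95 times as many CPM in replicate 4 as in replicate 1, and Rps2, of the small subunit, 2.64 times as many (690 and 261 CPM). At the other end, Rpl38, a large-subunit gene known for its part in translating Hox mRNAs in mouse embryos, stood at 72.0 CPM in replicate 4 and 541 CPM in replicate 1, a ratio of 0.133. Rpl6 and Rpl15, named above as low in flox/flox, are both in this set, and their flox/+ means rest in part on replicate 4.

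**Figure D5:**
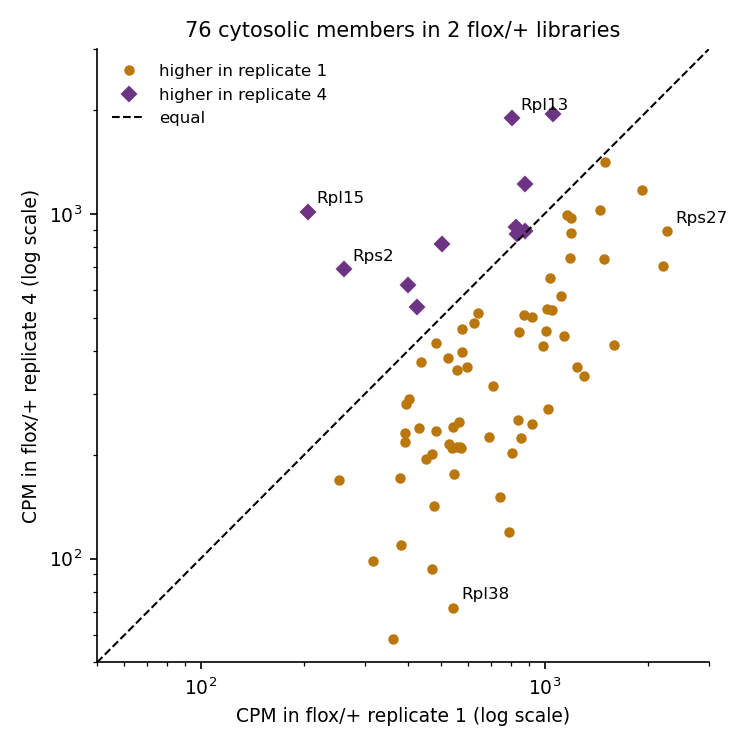
CPM of the 76 cytosolic members in flox/+ replicate 4 (vertical, log scale) and flox/+ replicate 1 (horizontal, log scale), with the line of equality. Most points lie under the line, and 11 members, among them Rpl15, Rpl13 and Rps2, lie above it.

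Per length, cytosolic members stood far above mitochondrial ones. On the scale of CPM per kb of exons, the mean level over the 10 libraries had a median of 555 for cytosolic members (76.7 to 3434) and of 41.6 for mitochondrial members (3.22 to 556). The highest cytosolic levels were those of Rps27 at 3434, Rplp1 at 2126, Rpl41 at 1830 and Rps18 at 1356 TPM. The lowest were those of Rpl22 at 90.0 and Rps15a at 76.7 TPM. Rps15a has 5395 bases of annotated exons, counted over all its transcripts, and a long exon total lowers the level per length. Among mitochondrial members Mrpl33, at 556 TPM, was followed by Mrps21 at 243, Mrpl42 at 226 and Mrpl52 at 185 TPM. The lowest were Mrpl19 at 6.80 and Mrps5 at 3.22 TPM. Mrpl33 had 279, 271 and 79.2 CPM in flox/flox, 192, 168 and 159 CPM in flox/N211A and 273, 246, 119 and 73.1 CPM in flox/+, with overlap of all genotypes. Rpl41 had 806, 974 and 517 CPM in flox/flox, 760, 928 and 1158 CPM in flox/N211A and 1193, 876, 991 and 969 CPM in flox/+. Rps18 had 578, 234 and 29.4 CPM in flox/flox, 340, 467 and 898 CPM in flox/N211A and 832, 795, 334 and 874 CPM in flox/+, a far wider spread than Rpl41.

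The cytosolic median was the lower of the class medians at each transcript length in flox/flox against flox/+. In flox/flox against flox/+, cytosolic members with under 1 kb of exons had a median difference of -1.04 (38 genes), and those of 1 to 2 kb one of -1.06 (29 genes), against -0.56 and -0.48 over all genes of those lengths. Mitochondrial members of the same lengths had medians of -0.43 (22 genes) and -0.61 (30 genes). At 2 to 4 kb the medians lay close together, at -1.20 for 8 cytosolic and -1.07 for 15 mitochondrial members, against -0.64 over all genes. Above 4 kb there was 1 cytosolic member, at -1.38, while 11 mitochondrial members had a median of 0.63, against -0.66 over all genes.

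Some cytosolic members could not be told apart from copies elsewhere in the genome. Rpl26, on chromosome 11, had exactly the counts of the processed pseudogene Gm15772 on chromosome 5 in all 10 libraries, for example 17452 counts for each in flox/+ replicate 1. Rps27, on chromosome 3, lay within 0.145% of the counts of its intronless copy Rps27rt on chromosome 9 in every library. Rpl34 lay within 0.451% of Rpl34-ps1 on chromosome 6, and Rpl30 within 1.05% of Gm12191 on chromosome 11. These 4 members have a row elsewhere in the table whose counts are within 2% in every library, so each pair is 1 measurement, and the level of each gene is uncertain by what its copy adds. No mitochondrial member had such a row. Of the 9 named ribosomal protein pseudogenes in the table, 8 were tested. All 8 lay below 0 in flox/flox against flox/+, against 63.1% of all genes. Their median was -1.26, also under that of all genes. The 9 include Rpl34-ps1, so the pseudogenes are not separate from the members.

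Other genes of translation were read from lists made by hand. In flox/flox against flox/+, 38 of 45 cytosolic translation factors lay below 0, with a median of -0.50, against 63.1% and -0.62 over all genes. EdgeR called 0 of them after adjustment, and 7 were lower at an unadjusted p under 0.05, against 8.7% of all genes. Pabpc1, the poly(A)-binding protein, whose mRNA also carries the pyrimidine motif in mammals, had a log2 fold change of -1.93 ± 0.61 (SE, edgeR adjusted p = 0.250), and Eef1a1, elongation factor 1 alpha, one of -1.12 ± 0.44 (SE, edgeR adjusted p = 0.302). Tpt1 was at -1.52 ± 0.59 and the ribosome-bound scaffold Rack1 at -1.26 ± 0.56 (SE). These genes were picked with their values known and do not stand for the list. The part of the pyrimidine motif was not tested. Of the cytosolic ribosomal proteins and paralogs outside the name rule, 9 were tested, 8 lay below 0, and their median was -0.94. That list includes Rps27rt, which is 1 measurement with the member Rps27. Of 6 mitochondrial ribosomal proteins with other names 3 lay below 0, with a median of -0.04, and 0 had an unadjusted p under 0.05. Of 25 genes of mitochondrial translation and ribosome assembly 13 lay below 0, with a median of -0.75 and 5 lower at an unadjusted p under 0.05. The list's summed CPM was 227, 580 and 587 in flox/flox, against 270, 314, 364 and 352 in flox/+, so flox/flox replicates 2 and 3 lay above flox/+ in the sum and replicate 1 under it, and its median on edgeR's fold changes was 0.11. In flox/N211A against flox/+ the median was -0.40 over the 45 translation factors, with 34 below 0, and 0.44 over the 25 mitochondrial translation genes, with 10 below 0, against 0.15 and 43.5% over all genes.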

How the data were processed

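The authors deposited raw read counts per gene symbol, whole numbers with no normalization, for 10 libraries. The submitters' processing notes name HISAT2 2.1.0 for alignment, the build mm10, Trim Galore 0.5.0, featureCounts 1.6.4 and DESeq2 with no version. No source used here states the annotation, the strand setting or how multi-mapping reads were counted.

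Genotypes came from the labels. Members and gene lists were chosen with earlier results of these data known. Counts were fitted with edgeR 4.0.16 (R 4.3.3) by quasi-likelihood: filterByExpr left 13464 genes, libraries were scaled by TMM, genotype was the only term, all 10 libraries shared 1 dispersion trend, and tests were two-sided with Benjamini-Hochberg adjustment over all genes at 0.05. CPM use TMM-scaled totals; differences of mean log2 CPM use a prior count of 2. Exon lengths and coordinates are from GENCODE M21 (GRCm38), in which all 154 members were found; promoters are from RefSeq. The model was tested on simulated data with changes far larger than the class medians described here. That test does not tell how often changes of the size of those medians would be called.

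Named members were Rplp0, Rplp1, Rplp2, Rpsa and Rps27a; per class the 4 highest and 2 lowest levels per length; per class and comparison the 3 smallest edgeR p higher and lower; any other was chosen after its values were seen. Alternatives were DESeq2 1.42.0, limma 3.58.1 voom with quality weights, other scalings and filters, a replicate block and leaving out libraries. No 2 libraries of the same genotype agreed within sampling noise, and pairs across genotypes were not compared in this way. Reads carry no molecular identifiers.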

Additional observations from a re-analysis of the deposited data

Results flagged for a closer look

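Within flox/+, 4 of 47 sets of 4 libraries examined (CPM of the named members and the class sums) had 1 library far from the others, where chance gives about 1 in 20. Rplp2 at 740 CPM, Rps27a at 844 CPM and Rps21 at 362 CPM were far above the other flox/+ libraries in replicate 1, the library with the highest cytosolic sum. Rps18 at 334 CPM was far below the others in replicate 3.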

How the results depend on the processing

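In flox/flox against flox/+, edgeR called 0 to 5 cytosolic and 0 to 1 mitochondrial members when single libraries were left out, against 0 of each with all libraries; the 5 and 1 (Mrpl45) came without flox/flox replicate 1, and 1 (Mrps30) without flox/flox replicate 3. DESeq2 called 5 cytosolic and 2 mitochondrial members, all lower, where it called 6.54% of all genes lower. An unadjusted p under 0.05 gave 22 and 4, against 8.7% of all genes lower and 5.73% higher. Without flox/flox replicates 2 and 3 together the cytosolic median was -0.19, the cytosolic minus mitochondrial median 0.28 (against -0.57) and 1 mitochondrial member was called. In flox/N211A against flox/+, an unadjusted p under 0.05 gave 2 cytosolic members, both lower, against 0.706% of all genes lower. In flox/N211A against flox/flox, it gave 3 cytosolic and 5 mitochondrial ones, against 7.63% of all genes higher and 4.42% lower. DESeq2 called 1 mitochondrial member higher, against 4.7% of all genes, and single omissions gave 0 to 1. There, without flox/flox replicates 2 and 3 the cytosolic median was 0.084 and its distance to the mitochondrial one -0.11. With totals that leave out the 10 most abundant genes, the mitochondrial median was 0.44 and the log2 ratio of mitochondrial sums -0.041, against 0.03 and -0.43. The cause of these shifts was not tested.

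With a replicate block, the cytosolic and mitochondrial medians were -1.13 and -0.39 for flox/flox against flox/+, and 0 members were called in any comparison. Same-numbered libraries deviated from their genotype means with correlations of -0.065 to 0.098, which show no pairing by number. Weak correlations between libraries that vary this much cannot exclude it.

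Of the named members' fold changes, these turned sign. Without flox/flox replicates 2 and 3: Rplp1 0.11, Rplp2 0.082, Rpl22 0.19, Rps15a 0.15, Mrpl19 -1.73 and Mrpl57 -0.57. In libraries with Xist above the Y-linked genes: Rpl39 -0.041, Rps21 -0.18 and Rps27 -0.0248 (flox/N211A against flox/+) and Mrpl33 -0.14. Mrpl33 was also at -0.095 with the replicate block and -0.046 with detected genes as a term. Mrpl19 was at -0.15 with the 10 most abundant genes left out and -0.16 with voom, and Mrps35 at -0.00989 with voom. Omitting single libraries gave ranges of -0.023 to 0.66 for Mrpl33 and -1.16 to 0.89 for Mrpl19 in flox/flox against flox/+, and -0.18 to 1.10 for Mrps35 in flox/N211A against flox/+.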
